A study of Homo sapiens with 14 samples.

Results

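Chaperones and heat shock genes were followed through drug treatment and EZH2 knockdown in LNCaP, a human prostate cancer line that grows in response to androgen. The set was a list of 34 gene symbols covering a heat shock factor pair, the HSP70 family, J-domain proteins, BAG proteins, small heat shock proteins, HSP90 with its co-chaperones, subunits of the cytosolic chaperonin TRiC and the mitochondrial chaperonin. A member was measured by its probe sets annotated to that gene alone, and its brightest probe set by the mean of the 14 arrays stood for the gene. This gave 30 members of 19775 genes. HSPA8 and TCP1 were read only by probe sets annotated to several genes, and HSF2 and AHSA1 had no probe set annotated to them alone, so these 4 were not analysed here. The name cytosolic does not cover all members: HSPA9, HSPD1 and HSPE1 encode mitochondrial proteins, and HSPA13 encodes a microsomal one.

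Chaperones bind unfolded proteins and keep them from aggregating. HSP70 proteins work in cycles of ATP hydrolysis, which J-domain proteins start and nucleotide exchange factors such as the BAG and HSP110 proteins end, and HSP90 completes the folding of kinases and steroid receptors with the help of co-chaperones. In prostate cells the androgen receptor is a client of HSP90. Under heat or proteotoxic stress, the transcription factor HSF1 binds inverted repeats of the unit GAA in the promoters of many of these genes.

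RNA of 14 samples was hybridised to Affymetrix arrays, with 2 arrays in each of 7 groups. Without transfection, cells received 5 uM TSA (trichostatin A, which blocks histone deacetylases), 10 uM Roscovitine (which blocks cyclin-dependent kinases) or 0.1% DMSO (the solvent) for 24 h. In a separate experiment, cells were transfected for 60 h with an siRNA against EZH2 (si-EZH2), the histone methyltransferase of the Polycomb complex PRC2, with si-EZH2 plus a plasmid for siRNA-resistant EZH2, or with a control siRNA (si-Control). The resistant EZH2 was the wild-type protein in 1 group (wild-type add-back) and carried the T350A change in another (T350A add-back), so that both add-back groups also carried si-EZH2. The number of arrays limits the precision, and no source says whether the samples of a group were grown separately, so that the spread behind a p-value may be technical.

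Values are linear probe set signals, and differences are log2 differences of signal + 16 with standard errors (SE), n = 2 arrays per group. A gene was called when its limma p, after Benjamini-Hochberg adjustment over the 19775 genes, was under 0.05, and only called genes are said to rise or fall. Statements that arrays did not overlap describe the values and are no test. With 2 arrays in each group, this also occurred for many members that were not called, and its share over all genes was not computed. Of 10 LNCaP markers 8 were measured, and their median signals over the arrays ran from 1392 to 9317. The second Roscovitine array and the second T350A add-back array differed from the first arrays of their groups in like ways. With 2 arrays in a group, which array of each pair deviates cannot be told. The differences between the arrays of these 2 groups correlated at r = 0.782 across 9888 genes (genes are no independent replicates), while the other pairs of groups lay between -0.337 and 0.399. Among members, HSP90AB1 had 10691 and 13268 in Roscovitine arrays and 10180.3 and 11646 in T350A add-back arrays, and BAG3 had 4564 and 5422 in Roscovitine arrays and 4354 and 5122 in T350A add-back arrays. EZH2, the targeted gene, had a mean signal of 393 ± 0.5 in si-EZH2 arrays and 1191 ± 42.8 in si-Control arrays (SD, n = 2 each), a log2 difference of -1.56 ± 0.07 (SE). It stood at 831 ± 11.7 in the wild-type add-back and 816 ± 13.8 in the T350A add-back.

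The promoters of several members carry HSF1-type repeats, and those of 5 called members whose window holds 3 repeat units are shown with the repeats in capitals. Among the members, HSPA2 rose most and HSPE1 fell most in TSA against DMSO arrays, and neither had a match in its window. The HSPE1 window starts at chr2:197500129, and the HSPD1 sequence with its repeats ends just outside it, at 197500090. The lack of a match in HSPE1 thus depends on the window edge. CRYAB, which moved by 1.64 and so more than HSPE1 (-1.39), had no window. A link between repeats and changes was not tested. All sequences given are from RefSeq on GRCh38.p14, written 5′ to 3′ on the strand of the gene. A RefSeq promoter window (250 bases before to 50 bases after an annotated start) was found for 26 of the 30 measured members. HSF1, HSPA14, CRYAB and FKBP4 had no entry. Windows were searched on both strands, with overlaps allowed, for GAANNTTC or TTCNNGAA (2 inverted units) and for either of these with 1 more unit, inverted to its neighbour and again after NN (3 units, which also count as a match with 2 units). The pattern with 3 units was in 0.49% of 35116 windows and, counted by gene, in 0.608% of 27305 genes and in 6 of the 26 members. These were HSPD1, HSP90AA1, HSP90AB1, DNAJA1, DNAJB6 and CHORDC1. The pattern with 2 units was in 16.2% of genes and in 14 of the 26 members. A match is a description of letters, not a sign that HSF1 binds there. The HSP90AB1 matches, like that of HSPD1, lie before a downstream annotated start but inside the gene as RefSeq counts it. In HSPD1 (chr2:197500043-197500090, minus strand, before a downstream annotated start but inside the gene as RefSeq counts it from an upstream start), DNAJB6 (chr7:157336848-157336910, plus strand), CHORDC1 (chr11:90223062-90223134, minus strand), DNAJA1 (chr9:33025251-33025313, plus strand, just past the annotated start) and HSP90AB1 (chr6:44247753-44247868, plus strand, with 2 separate matches) the sequences read:
HSPD1: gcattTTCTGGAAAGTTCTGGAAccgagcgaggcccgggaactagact
DNAJB6: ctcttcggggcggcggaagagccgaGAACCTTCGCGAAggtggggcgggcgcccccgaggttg
CHORDC1: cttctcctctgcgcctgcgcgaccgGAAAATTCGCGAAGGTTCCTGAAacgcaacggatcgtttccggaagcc
DNAJA1: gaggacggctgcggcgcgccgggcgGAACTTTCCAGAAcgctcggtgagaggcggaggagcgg
HSP90AB1: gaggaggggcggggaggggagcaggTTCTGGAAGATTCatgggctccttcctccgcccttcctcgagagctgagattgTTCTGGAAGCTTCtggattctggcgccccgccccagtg

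With TSA, chaperone genes moved in both directions at once. Of the 30 members, 9 rose, 13 fell and 8 did not pass the test in TSA arrays against DMSO arrays. Over all genes, 42.0% were called in this comparison, with 20.6% higher and 21.4% lower. Nearly all members are among the genes with the higher mean signal, where 64.1% of 9888 genes were called. Of the 28 members among those genes (all but HSPA2 and CRYAB), 20 were called, which is 71.4%. The median log2 difference of the 30 members was -0.11, while that of all genes was 0.008. The members that rose were HSPA2, HSPA4 and HSPA13 of the HSP70 family, DNAJB1, DNAJB6, HSPB8, CRYAB, HSP90AA1 and CDC37. The members that fell were HSPA9, HSPH1, BAG1, BAG2, HSPB1, HSPD1, HSPE1, HSP90AB1, CHORDC1, PTGES3, FKBP4, CCT3 and CCT5.

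**Figure D1:**
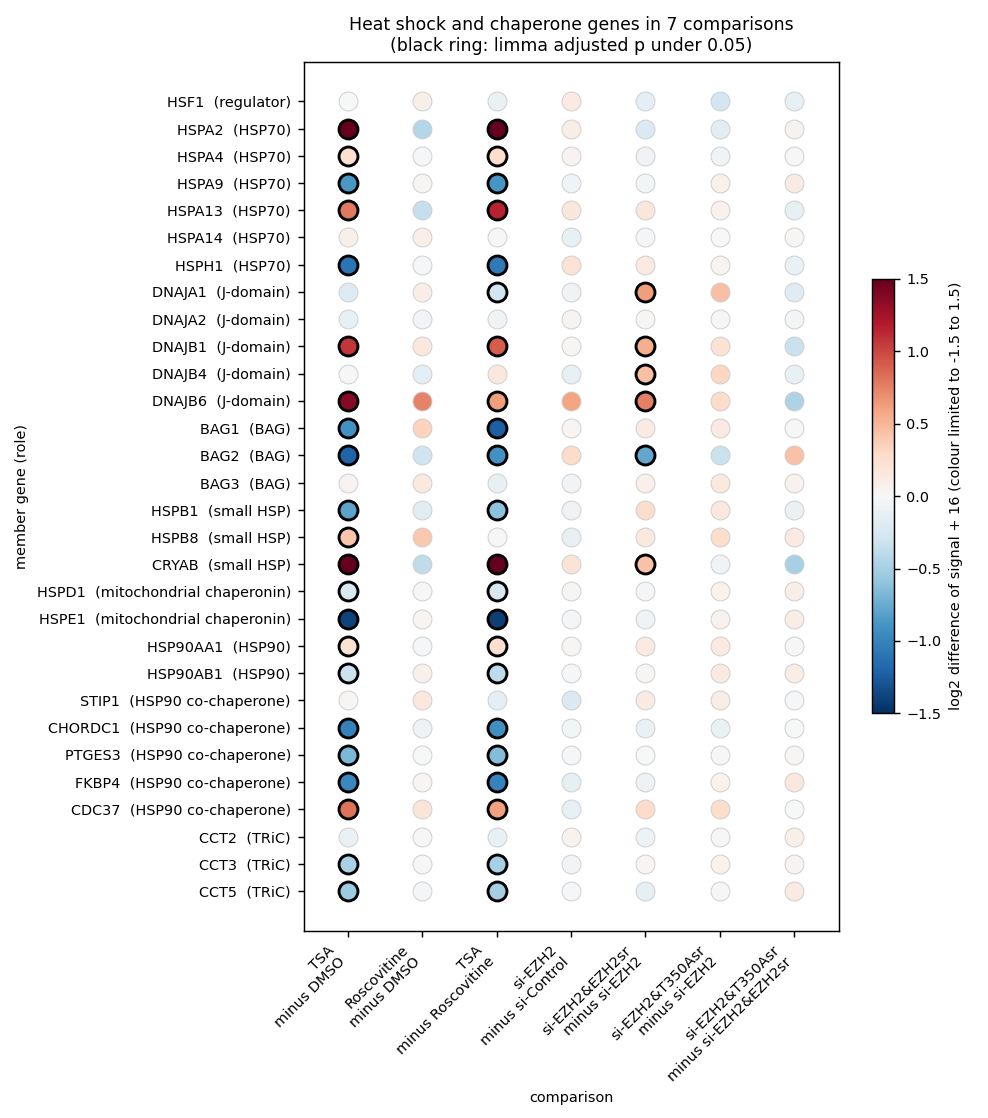
Log2 differences of the 30 measured members (rows, by role) in 7 comparisons (columns), with red for a higher and blue for a lower signal in the group named first and a black ring for a limma adjusted p under 0.05. The comparisons of TSA with DMSO and with Roscovitine each hold 22 ringed members, that of wild-type add-back with si-EZH2 holds 6, and the other 4 comparisons hold 0.

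In the HSP70 family the direction differed from gene to gene. HSPA2, an HSP70 protein best known from the testis, had signals of 662 and 676 in TSA arrays, against 47.9 and 55.2 in DMSO arrays. This was 13.0-fold by the means, with a log2 difference of 3.34 ± 0.19 (limma adjusted p = 7.88e-07), and the TSA arrays were high above all 12 others, which lay between 23.2 and 55.2. HSPA13, a microsomal HSP70 relative, had 2539 and 2414 in TSA arrays, against 1421 and 1419 in DMSO arrays, and rose by 0.79 ± 0.10 (limma adjusted p = 0.000111). HSPA9 and HSPH1 fell. HSPA9, the mitochondrial HSP70 that drives protein import, had 2625 and 2641 in TSA arrays, against 4779.9 and 4887 in DMSO arrays. Its log2 difference was -0.87 ± 0.07 (limma adjusted p = 4.03e-06), and the 3 further probe sets of HSPA9 gave -1.10, -0.90 and -0.60. HSPH1, an HSP110 protein that exchanges the nucleotide of HSP70, had 2186 and 2092 in TSA arrays, against 4654 and 4532 in DMSO arrays (-1.10 ± 0.07, limma adjusted p = 1.26e-06). The TSA and DMSO arrays of these 4 genes did not overlap. HSPA4, another HSP110 protein, rose by 0.24 ± 0.06, with 5550.3 and 5235 in TSA arrays against 4511 and 4605 in DMSO arrays, but a further probe set of it was at -0.25. HSPA14, a ribosome-associated HSP70, did not pass the test on its main probe set (1183 and 1132 in TSA arrays, 1069 and 1097 in DMSO arrays). Its 2 further probe sets were lower in TSA arrays, at -0.74 and -0.39, so its probe sets disagree.

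J-domain proteins bring substrates to HSP70 and start its ATP hydrolysis. DNAJB1, the main partner of cytosolic HSP70, had 3741 and 3629.9 in TSA arrays, against 1726 and 1766 in DMSO arrays. It rose by 1.07 ± 0.10 (limma adjusted p = 1.29e-05), and its further probe set gave 1.07 as well. DNAJB6, which holds back the aggregation of polyglutamine proteins, had 695 and 619 in TSA arrays, against 231 and 258 in DMSO arrays. It rose by 1.37 ± 0.17 (limma adjusted p = 0.000118), and the arrays did not overlap. The other 3 J-domain genes did not pass the test. DNAJA1 had 5437 and 5253 in TSA arrays, against 5895 and 6309 in DMSO arrays (-0.19 ± 0.09), and its further probe set was at -0.41. DNAJA2 was at -0.12 ± 0.06 and DNAJB4 at 0.01 ± 0.08. Of these 3, DNAJB4 alone had TSA arrays inside the range of the DMSO arrays.

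BAG proteins release substrates from HSP70 by exchanging its nucleotide. Of the 3 BAG genes, 2 fell, 0 rose and 1 did not pass the test. BAG2, which also blocks the ubiquitin ligase CHIP, had 234 and 196 in TSA arrays, against 515 and 517 in DMSO arrays. It fell by 1.21 on the log2 scale (SE 0.12, limma adjusted p = 2.95e-05), but its 2 further, dimmer probe sets were at 0.03 and -0.01. BAG1 had 668 and 684 in TSA arrays, against 1242 and 1324 in DMSO arrays, and fell by 0.91 (SE 0.09, limma adjusted p = 2.61e-05). Both TSA arrays of each gene were below both DMSO arrays. BAG3, which works with HSPB8 in the autophagy of aggregates, had 4714 and 4527 in TSA arrays, against 4419 and 4562 in DMSO arrays, and these overlapped (0.04 ± 0.10).

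Small heat shock proteins hold unfolded proteins without ATP. CRYAB, the lens and muscle protein αB-crystallin, had 301 and 289 in TSA arrays, against 78.6 and 89.7 in DMSO arrays. It rose by 1.64 ± 0.11 (limma adjusted p = 1.65e-06), 3.51-fold by the means. HSPB1, known as HSP27, had 4531 and 4418 in TSA arrays, against 7622 and 7936 in DMSO arrays. It fell by 0.80 (SE 0.07, limma adjusted p = 1.73e-05). HSPB8 had 375 and 366 in TSA arrays, against 272 and 274 in DMSO arrays, and rose by 0.42 ± 0.12 (limma adjusted p = 0.0187). In all 3 genes the TSA arrays stood clear of the DMSO arrays, above them in CRYAB and HSPB8 and below them in HSPB1.

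**Figure D2:**
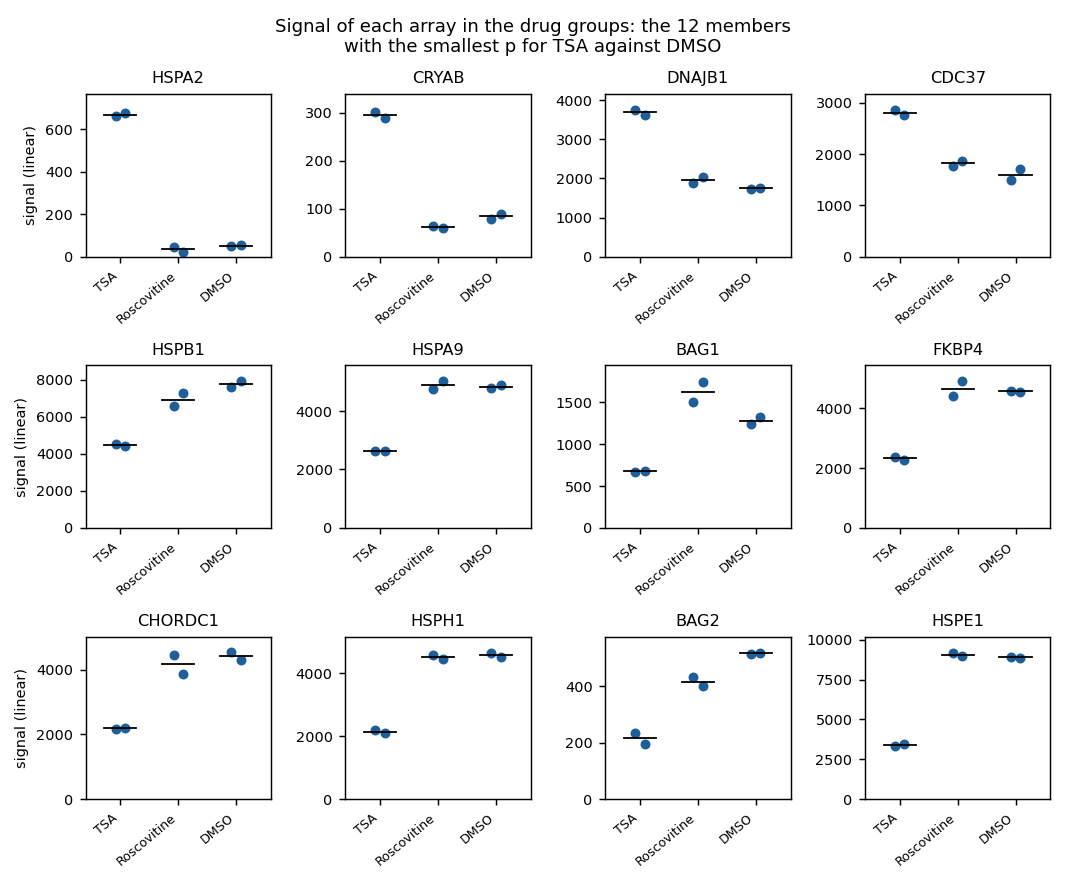
Linear signal (vertical axes, from 0) of each array in TSA, Roscovitine and DMSO for the 12 members with the smallest p in the comparison of TSA with DMSO, where each point is an array and each line a group mean. In all 12 panels the TSA arrays stand clear of the Roscovitine and DMSO arrays, from HSPA2 at 662 and 676 in TSA arrays to HSPE1 at 3306 and 3481 in TSA arrays.

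The mitochondrial chaperonin is built from HSPD1 (HSP60) rings and an HSPE1 (HSP10) lid, and both genes are encoded head to head on chromosome 2. HSPE1 had 3306 and 3481 in TSA arrays, against 8949.8 and 8876 in DMSO arrays, and it fell by 1.39 on the log2 scale (SE 0.08, limma adjusted p = 6.26e-07). Both TSA arrays were the lowest of the 14, since the 12 others lay between 6996 and 9155. HSPD1 had 13655 and 13156 in TSA arrays, against 15635 and 16067 in DMSO arrays. It fell by 0.24 (SE 0.08, limma adjusted p = 0.0329), and of its further probe sets 3 were lower as well, at -0.38, -0.60 and -0.90, and 1 was at 0.08 ± 0.42. Only 55 of the 54613 probe sets had a higher mean signal than the main HSPD1 probe set, and whether such bright probe sets respond in proportion was not tested. The log2 ratio of HSPE1 to HSPD1 signal within an array was -2.04 and -1.91 in TSA arrays, against -0.80 and -0.85 in DMSO arrays. Its absolute level has no meaning across probe sets, but its shift shows that the signals of the pair changed unequally. The shared promoter region is shown as the RefSeq window of HSPE1 (chr2:197500129-197500428, GRCh38.p14, plus strand), with capitals for the 204 bases that also lie, on the opposite strand, in the window of an upstream HSPD1 start.
HSPE1: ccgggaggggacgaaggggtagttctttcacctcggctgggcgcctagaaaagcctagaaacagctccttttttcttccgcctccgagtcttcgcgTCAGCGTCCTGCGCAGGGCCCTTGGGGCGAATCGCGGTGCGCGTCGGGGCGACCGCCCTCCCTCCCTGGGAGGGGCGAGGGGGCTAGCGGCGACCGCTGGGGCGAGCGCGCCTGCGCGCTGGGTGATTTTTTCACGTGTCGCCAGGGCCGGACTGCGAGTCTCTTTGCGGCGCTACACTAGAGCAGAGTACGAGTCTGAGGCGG

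**Figure D3:**
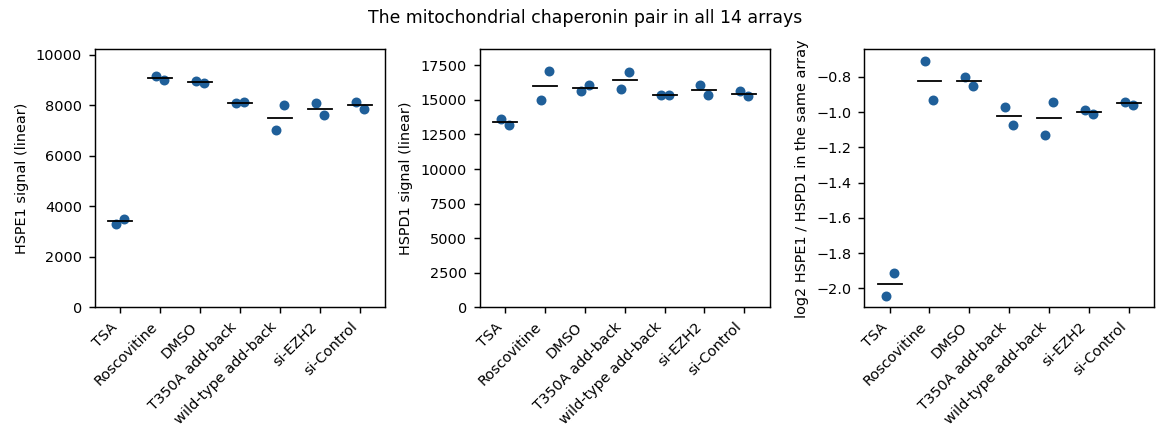
Linear signals of HSPE1 (left) and HSPD1 (middle) and the log2 ratio of HSPE1 to HSPD1 in the same array (right) in all 7 groups, where each point is an array and each line a group mean. The ratio was -2.04 and -1.91 in the TSA arrays and lay between -1.13 and -0.71 in the 12 others.

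HSP90 and its co-chaperones fold kinases and steroid receptors. HSP90AA1, the stress-inducible form, had 12906 and 12960.1 in TSA arrays, against 11030.3 and 11120.2 in DMSO arrays, and rose by 0.22 ± 0.06 (limma adjusted p = 0.0192). HSP90AB1, the constitutive form, had 9324 and 8823 in TSA arrays, against 11076 and 11505 in DMSO arrays, and fell by 0.32 (SE 0.11, limma adjusted p = 0.0372). The arrays overlapped in neither gene, and each further probe set had the sign of its main one, between 0.14 and 0.25 for HSP90AA1 and at -0.41 and -0.35 for HSP90AB1. Both genes are close in sequence, and how far their probe sets read each other was not tested.

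Of the 5 measured co-chaperones, 3 fell, 1 rose and 1 did not pass the test. CHORDC1 (morgana), an HSP90 partner whose promoter carries the long run of GAA units shown above, had 2174 and 2207 in TSA arrays, against 4538 and 4320.0 in DMSO arrays. It fell by 1.01 (SE 0.09, limma adjusted p = 1.46e-05). FKBP4 (FKBP52), an immunophilin of steroid receptor complexes, had 2354 and 2286 in TSA arrays, against 4576 and 4559 in DMSO arrays, and fell by 0.97 (SE 0.08, limma adjusted p = 9.18e-06). PTGES3 (p23), which stabilises the ATP-bound form of HSP90, had 7314 and 6891 in TSA arrays, against 11035 and 11504 in DMSO arrays, and fell by 0.67 (SE 0.07, limma adjusted p = 4.37e-05). CDC37, which hands kinases to HSP90, went the other way, with 2864 and 2758 in TSA arrays, against 1489 and 1702 in DMSO arrays, a rise of 0.81 ± 0.09 (limma adjusted p = 4.03e-05). In these 4 genes the TSA and DMSO arrays did not overlap. STIP1 (HOP), which links HSP70 to HSP90, had 3092 and 3096 in TSA arrays, between the DMSO arrays at 2943 and 3176.

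TRiC folds actin and tubulin. CCT3 fell by 0.49 (SE 0.06, limma adjusted p = 0.000142) and CCT5 by 0.54 (SE 0.07, limma adjusted p = 0.000225), with 6744 and 6384 in TSA arrays against 9079.5 and 9344 in DMSO arrays for CCT3. CCT5 had 4763 and 4577 in TSA arrays, against 6691 and 6941 in DMSO arrays. CCT2 did not pass the test (9721 and 9019.9 in TSA arrays, 10065 and 10076 in DMSO arrays, -0.10 ± 0.07). HSF1, the regulator of the heat shock response, had 1006 and 988 in TSA arrays, against 1052 and 958 in DMSO arrays, and the arrays overlapped (-0.01 ± 0.09, 95% confidence interval -0.22 to 0.20).

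The calls of HSPA4, HSPB8, HSPD1, HSP90AA1 and HSP90AB1, all of 0.42 or less on the log2 scale, did not hold in every setting. HSPB8 (limma adjusted p of 0.0627 to 0.0831), HSPD1 (0.0716 to 0.145), HSP90AA1 (0.0665 to 0.0904) and HSP90AB1 (0.0765 to 0.162) lost the call whichever of the TSA and DMSO arrays was left out, and HSPA4 was not called without the first DMSO array (0.0609) or the first TSA array (0.0641). HSP90AB1 was also lost when any si-Control or si-EZH2 array was left out (0.0537 to 0.0546). With all arrays set to the same median, HSPA4 (0.19, adjusted p = 0.0595) and HSP90AA1 (0.17, adjusted p = 0.08) did not pass. With a gene's probe sets averaged, HSPA4 (0.11) and HSPB8 (0.22) did not pass, and with the 6 drug experiment arrays alone HSPD1 and HSP90AB1 did not (adjusted p = 0.09 and 0.106). The other 17 members called with TSA stayed called whichever of the 14 arrays was left out. Of 29 further probe sets with a mean signal of at least 50, which belonged to 14 of the called members, 26 had the sign of the main probe set, and the 3 others belonged to BAG2, HSPA4 and HSPD1.

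**Figure D4:**
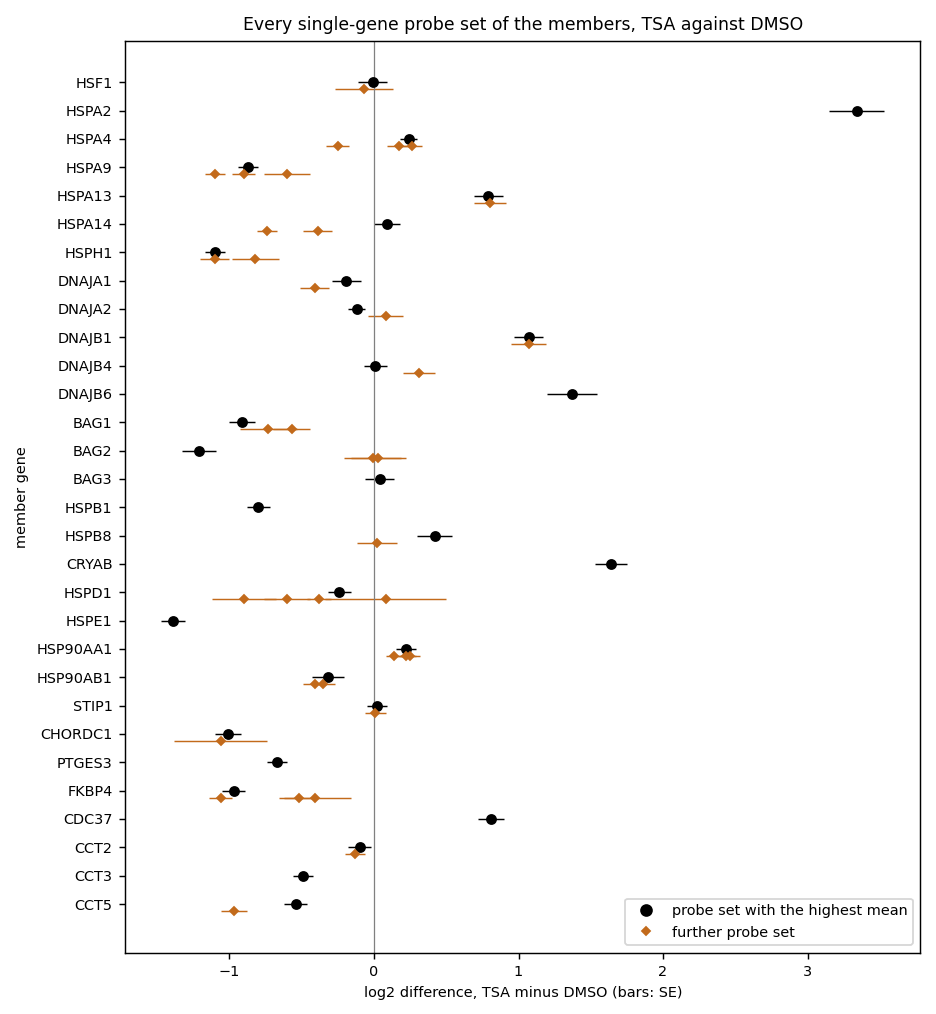
Log2 difference of TSA and DMSO arrays (horizontal axis, bars are SE) for every probe set annotated to a measured member alone and with a mean signal of at least 50 (members down the page). Black circles are the probe sets that stand for the gene and orange diamonds the further ones, of which HSPA14 has 2 at -0.74 and -0.39 beside its main one at 0.09.

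A wider list of 58 chaperone genes that are not members, of which 52 were measured, also moved both ways with TSA: 11 rose, 15 fell and 26 did not pass. Of all genes 42.0% were called, and of the genes with the higher mean signal 64.1%; the count is given as a description only. The 4 with the smallest p are named here. BAG4, a BAG protein, rose (2816 and 2725 in TSA arrays, 1648 and 1668 in DMSO arrays, 0.73 ± 0.06). The prefoldin subunit VBP1, which passes unfolded actin and tubulin to TRiC, fell (2697 and 2638 in TSA arrays, 4541 and 4720.0 in DMSO arrays, -0.79 ± 0.07). CLPP, a mitochondrial protease, fell by 1.21 (SE 0.12, 902 and 726 in TSA arrays, 1895 and 1901 in DMSO arrays). DNAJC2, the J-domain partner of HSPA14 at the ribosome, fell by 0.85 (SE 0.07, 1005 and 923 in TSA arrays, 1759 and 1749 in DMSO arrays).

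Markers of the cells moved with TSA too. The summed signal of the 8 LNCaP markers was 14263 to 14947 in TSA arrays and 25816 to 38842 in the 12 others. KLK3 (prostate-specific antigen) had 314 and 320.3 in TSA arrays, against 5099.6 to 11539 in the others, and KLK2, FOLH1, TMPRSS2 and ACP3 were also far below the others. The list did not move as a whole: the keratin KRT8 had 4866 and 4560.4 in TSA arrays, against 2275 to 2978 in the others, HOXB13 had 2198 and 2172, at the low end of the 2171 to 5018 of the others, and KRT18 did not pass the test against DMSO (-0.14). Of 3 markers of androgen-independent prostate lines, all measured, the summed signal was 1507 to 1573 in TSA arrays and 599.8 to 1225 in the others. VIM made up most of it (1432 and 1348 in TSA arrays, 505 to 1117 in the others), CAV1 had 94.2 and 79.4 in TSA arrays and 17.8 to 35.6 in the others, and CD44 did not pass against DMSO (-0.11). Of 10 leukocyte, fibroblast and endothelial markers 9 were measured, with a summed signal of 2904 to 2965 in TSA arrays and 2507 to 3528 in the others. Of these 9, 4 had a median signal under 100, and the leukocyte marker CD14 lay at 2.4 or less in all arrays. The endothelial marker PECAM1 was the brightest, with a median of 1562, above the lowest LNCaP marker median of 1392. It had 1269 and 1185 in TSA arrays and 1453 to 2404 in the others, and did not pass against DMSO (-0.35). The fibroblast marker COL1A1 had 1133 and 1150.4 in TSA arrays and 262 to 451 in the others. The part of these markers in the chaperone results was not tested. In bulk RNA, fewer cells of a type and less RNA per cell cannot be told apart.

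Roscovitine moved no member past the test. Against DMSO, 0 of 30 members were called by limma, where 2.76% of all genes were called, and 9 members had an unadjusted p under 0.05, as had 3098 of the 19775 genes. These counts rest on 1 probe set per gene: a further, dimmer probe set of HSPA4 was at 0.86 ± 0.08 in Roscovitine arrays against DMSO arrays (limma adjusted p = 0.00268 over all probe sets), while its main one was at -0.02. The members' median log2 difference was 0.01, while that of all genes was 0.001. DNAJB6 had 418 and 419 in Roscovitine arrays, against 231 and 258 in DMSO arrays (0.74 ± 0.17, limma adjusted p = 0.058). BAG1 had 1509 and 1745 in Roscovitine arrays, against 1242 and 1324 in DMSO arrays (0.34 ± 0.09, limma adjusted p = 0.0972). HSPA13 had 1070.4 and 1129 in Roscovitine arrays, against 1421 and 1419 in DMSO arrays (-0.36 ± 0.10, limma adjusted p = 0.097). In these 3 genes the arrays did not overlap, but the differences did not pass the test. The other members with an unadjusted p under 0.05 were HSPA2, HSPB1, HSPB8, BAG2, CRYAB and STIP1, between -0.44 and 0.41. HSPB1 was at -0.17 ± 0.07, DNAJB1 at 0.16 ± 0.10, BAG3 at 0.15 ± 0.10 and HSF1 at 0.09 ± 0.09, and HSPD1, HSPE1, HSPH1 and HSP90AA1 lay between -0.02 and 0.03. When either wild-type add-back array was left out, DNAJB6 (adjusted p = 0.0119) and HSPA13 (adjusted p = 0.0232) were called, and when the first Roscovitine array was left out HSPA2 was called (-0.78, adjusted p = 0.0456).

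Set directly against Roscovitine, TSA again gave 22 called members, 8 higher and 14 lower, where 42.9% of all genes (21.3% higher and 21.6% lower) and 65.0% of the genes with the higher mean signal were called. The members' median log2 difference was -0.13, while that of all genes was -0.005. This comparison shares the TSA arrays with the one against DMSO, so the counts are not independent. The differences between the comparisons lie in a few genes. HSPB8, with 375 and 366 in TSA arrays, against 343 and 392 in Roscovitine arrays, did not pass (0.01 ± 0.12, 95% confidence interval -0.26 to 0.29). DNAJA1, with 5437 and 5253 in TSA arrays, against 6264 and 6809.8 in Roscovitine arrays, fell (-0.29 ± 0.09, limma adjusted p = 0.0324). HSPA2 had 662 and 676 in TSA arrays, against 46.9 and 23.2 in Roscovitine arrays, a difference of 3.78 ± 0.19 (limma adjusted p = 3.97e-07). CRYAB had 301 and 289 in TSA arrays, against 63.1 and 59 in Roscovitine arrays, a difference of 2.01 ± 0.11 (limma adjusted p = 5.05e-07). In both genes the TSA arrays were far above the Roscovitine arrays.

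HSPA13 (1.16 ± 0.10), with 1070.4 and 1129 in Roscovitine arrays, and DNAJB1 (0.91 ± 0.10), with 1884 and 2034 there, were also higher in the TSA arrays given above. HSPE1 (-1.41 ± 0.08) had 9155 and 8987 in Roscovitine arrays, BAG1 (-1.24 ± 0.09) had 1509 and 1745, and HSPH1 (-1.07 ± 0.07) had 4576 and 4459, and these 3 genes fell with TSA. FKBP4 (-1.0 ± 0.08, 4424 and 4899.8 in Roscovitine arrays), CHORDC1 (-0.92 ± 0.09, 4472 and 3873), HSPA9 (-0.89 ± 0.07, 4759.6 and 5030.5), PTGES3 (-0.65 ± 0.07, 10879 and 11491) and HSPB1 (-0.62 ± 0.07, 6554 and 7266) fell as well. The TSA and Roscovitine arrays of these 10 genes did not overlap. Among the other calls DNAJB6 was at 0.63, CDC37 at 0.62, HSPA4 at 0.27 (but -1.10 ± 0.08 on a further probe set, limma adjusted p = 3.50e-06 over all probe sets) and HSP90AA1 at 0.25, while BAG2 was at -0.91, CCT5 at -0.51, CCT3 at -0.50, HSP90AB1 at -0.39 and HSPD1 at -0.25. HSF1 (-0.10 ± 0.09) and BAG3 (-0.11 ± 0.10) did not pass. In members not called, further probe sets passed, by the adjusted p over all probe sets, in DNAJB4 (0.62), HSPA14 (-0.42 and -0.36), DNAJA2 (-0.51) and STIP1 (-0.22). With a gene's probe sets averaged, DNAJB4 (0.39), DNAJA2 (-0.29) and HSPA14 (-0.26) were called.

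Without the second Roscovitine array HSPD1 (-0.16), HSP90AB1 (-0.24), DNAJA1 (-0.23) and DNAJB6 (0.63) no longer passed. Without the first Roscovitine array HSP90AA1 (0.21) and DNAJB6 (0.63) were lost. Without the first TSA array HSPD1 (-0.28), DNAJA1 (-0.31) and DNAJB6 (0.55) were lost, and without the second HSPD1 (-0.23), HSP90AB1 (-0.35) and DNAJA1 (-0.26). After quantile normalization DNAJA1 was at -0.13 (adjusted p = 0.303). Of the wider list, 12 genes rose and 16 fell against Roscovitine, with the smallest p for BAG4 (0.92 ± 0.06), VBP1 (-0.75 ± 0.07), CLPP (-1.25 ± 0.12) and the HSP90 co-chaperone SUGT1 (0.56 ± 0.06), and 0 were called for Roscovitine against DMSO.

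Knockdown of EZH2 changed no member past the test. In si-EZH2 against si-Control, 0 of 30 members were called by limma, where 0.809% of all genes were called. Of the members 4 had an unadjusted p under 0.05, as had 2255 of the 19775 genes. The members' median log2 difference was -0.02, while that of all genes was 0.037. DNAJB6 had 229 and 276 in si-EZH2 arrays, against 155 and 169 in si-Control arrays (0.59 ± 0.17, limma adjusted p = 0.199). STIP1 had 2105 and 2253 in si-EZH2 arrays, against 2636 and 2481 in si-Control arrays (-0.23 ± 0.07, limma adjusted p = 0.211). The arrays of both genes did not overlap between groups. HSPH1 (0.20 ± 0.07) and BAG2 (0.29 ± 0.12) were the other members with an unadjusted p under 0.05. HSF1 was at 0.14 ± 0.09, and HSPB1, BAG3, HSPE1, HSPD1, HSP90AA1 and DNAJB1 lay between -0.06 and 0.02. DNAJB6 was called when either wild-type add-back array was left out (adjusted p = 0.0458). Of the wider list, 0 of 52 genes were called.

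Most J-domain genes rose with the wild-type add-back. No group is labelled as si-EZH2 with a plasmid lacking EZH2. In either add-back, the added EZH2 and the plasmid itself therefore cannot be told apart. Set against si-EZH2 alone, 5 members rose and 1 fell, which is 20.0% of the members, where 11.3% of all genes were called, 3.36% higher and 7.94% lower. Among genes with the higher mean signal 17.8% were called. The members' median log2 difference was 0.02, while that of all genes was -0.053. Of the 5 J-domain genes 4 rose, and no member of the HSP70, HSP90, TRiC or mitochondrial chaperonin groups was called on its main probe set. Further probe sets passed, by the adjusted p over all probe sets, in HSPH1 (0.54 ± 0.10), HSPA9 (-0.30 ± 0.08), CCT5 (-0.42 ± 0.09) and FKBP4 (-0.60 ± 0.10). HSPD1 was at -0.03 ± 0.08, HSPE1 at -0.07 ± 0.08, HSP90AA1 at 0.13 ± 0.06 and HSPH1 at 0.14 ± 0.07. HSPB1 was at 0.26 ± 0.07 (limma adjusted p = 0.0591), BAG3 at 0.08 ± 0.10 and HSF1 at -0.15 ± 0.09.

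DNAJA1, an HSP70 partner whose first transcribed bases carry the GAA repeat shown above, had 7310.5 and 6137 in wild-type add-back arrays, against 4313 and 4304 in si-EZH2 arrays. It rose by 0.63 ± 0.09 (limma adjusted p = 0.00502), stayed called whichever of the 14 arrays was left out, and gave 0.47 on its further probe set. DNAJB1 had 2011 and 1680.3 in wild-type add-back arrays, against 1202 and 1296 in si-EZH2 arrays, and rose by 0.55 ± 0.10 (limma adjusted p = 0.00908). DNAJB4, a further J-domain partner of HSP70, had 836 and 857 in wild-type add-back arrays, against 592 and 642 in si-EZH2 arrays, and rose by 0.45 ± 0.08 (limma adjusted p = 0.00853). The further probe sets of DNAJB1 and DNAJB4 gave 0.70 and 0.65. DNAJB6 had 535 and 352 in wild-type add-back arrays, against 229 and 276 in si-EZH2 arrays, and rose by 0.75 ± 0.17 (limma adjusted p = 0.024). Its add-back arrays differed from each other more than those of any other member in that group, by 0.58 on the log2 scale. CRYAB had 209 and 179 in wild-type add-back arrays, against 134 and 143 in si-EZH2 arrays (0.44 ± 0.11, limma adjusted p = 0.0303). BAG2 fell, with 313 and 394.5 in wild-type add-back arrays, against 599.5 and 626 in si-EZH2 arrays (-0.78 ± 0.12, limma adjusted p = 0.00636), and its further probe sets were at -0.06 and -0.38. In all 6 genes the add-back and si-EZH2 arrays did not overlap, but this was so for 19 of the 30 members, called or not.

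These 6 calls rest on the spread pooled over all 14 arrays. With the 8 transfected arrays alone, 0 were called, where 1.23% of all genes were, and the adjusted p ran from 0.0535 (DNAJA1) to 0.112 (CRYAB) at the same log2 differences. Without the first si-EZH2 array 2 members and 3.09% of all genes were called, as DNAJB1 (0.50, adjusted p = 0.0672), DNAJB4 (0.39, 0.0645), DNAJB6 (0.62, 0.141) and CRYAB (0.40, 0.151) were lost. Without the second si-EZH2 array 3 members and 2.32% of all genes were called, as DNAJB6 (0.88, adjusted p = 0.0703), CRYAB (0.48, 0.106) and BAG2 (-0.74, 0.0543) were lost, and without the first wild-type add-back array DNAJB6 (0.46, 0.102) and CRYAB (0.34, 0.182) were lost. Of the 8 measured LNCaP markers, KLK2 (-1.02 ± 0.21, adjusted p = 0.0169) and ACP3 (-0.53 ± 0.14, adjusted p = 0.0376) fell in the same comparison. The others did not pass and lay between -0.65 (TMPRSS2) and 0.20 (KRT8). The part of these markers in the result was not tested. Of the wider list, CLPB (0.36 ± 0.09) rose and BAG4 (-0.32 ± 0.06) and FKBP5 (-0.56 ± 0.15) fell, and of the 14 fits that each leave out an array, CLPB was called in 4, BAG4 in 11 and FKBP5 in 1.

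**Figure D5:**
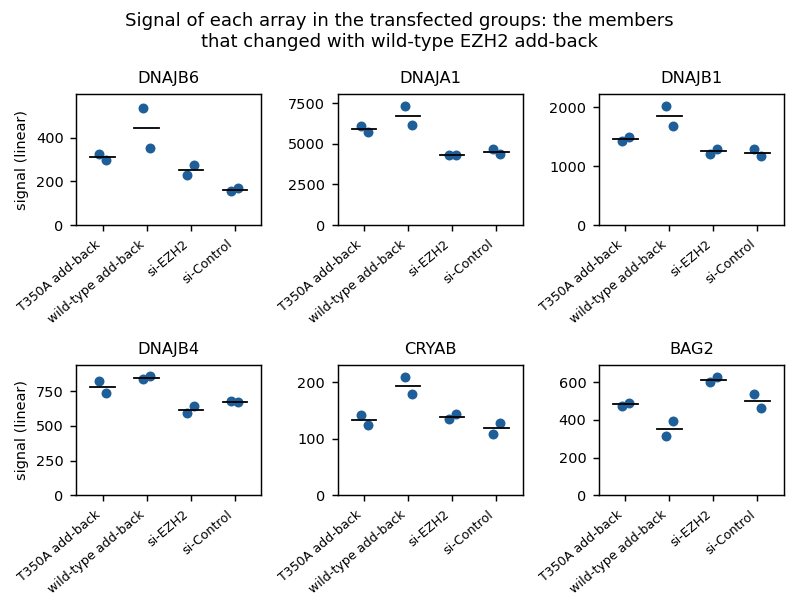
Linear signal (vertical axes, from 0) of each array in the T350A add-back, wild-type add-back, si-EZH2 and si-Control groups for the 6 members called between wild-type add-back and si-EZH2, where each point is an array and each line a group mean. In all 6 panels the wild-type add-back arrays lie outside the range of the si-EZH2 arrays, above it in 5 genes and below it in BAG2, where they are at 313 and 394.5.

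The T350A add-back moved no member past the test. Against si-EZH2, 0 of 30 members were called by limma, where 0.804% of all genes were called. Of the members 7 had an unadjusted p under 0.05, as had 2514 of the 19775 genes. The members' median log2 difference was 0.06, while that of all genes was -0.001. DNAJA1 had 6083 and 5727 in T350A add-back arrays, against 4313 and 4304 in si-EZH2 arrays (0.45 ± 0.09, limma adjusted p = 0.0712), and DNAJB4 had 819 and 735 in T350A add-back arrays, against 592 and 642 in si-EZH2 arrays (0.32 ± 0.08, limma adjusted p = 0.104). In both genes the arrays did not overlap. HSF1, HSPB8, DNAJB1, BAG2 and CDC37 were the other members with an unadjusted p under 0.05, between -0.33 and 0.28, with HSF1 at -0.27 ± 0.09 and DNAJB1 at 0.22 ± 0.10. The further, dimmer probe set of HSF1 was at 0.39 ± 0.20, so its probe sets disagree in sign. HSPB1 was at 0.16, BAG3 at 0.15 and HSP90AA1 at 0.14, and HSPH1, HSPE1 and HSPD1 lay between 0.04 and 0.06. DNAJA1 was called when either wild-type add-back array was left out (adjusted p = 0.0269).

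A call in one add-back and not in the other does not show that they differ, so they were set against each other. In the T350A add-back against the wild-type add-back, 0 of 30 members were called by limma, where 0.202% of all genes were called. Of the members 4 had an unadjusted p under 0.05, as had 3233 of the 19775 genes. The members' median log2 difference was 0.01, while that of all genes was 0.063. CRYAB had 141 and 124 in T350A add-back arrays, against 209 and 179 in wild-type add-back arrays (-0.50, 95% confidence interval -0.74 to -0.26, limma adjusted p = 0.117). BAG2 had 476 and 489 in T350A add-back arrays, against 313 and 394.5 in wild-type add-back arrays (0.44, 0.16 to 0.72, limma adjusted p = 0.175). DNAJB1 had 1421 and 1498 in T350A add-back arrays, against 2011 and 1680.3 in wild-type add-back arrays (-0.33, -0.55 to -0.11, limma adjusted p = 0.179). DNAJB6, at 326 and 298 in T350A add-back arrays and 535 and 352 in wild-type add-back arrays, was at -0.46 (-0.84 to -0.07, limma adjusted p = 0.246). The arrays of these 4 genes did not overlap between the add-backs, but none of the differences passed. The intervals of DNAJA1 (-0.18, -0.39 to 0.03) and DNAJB4 (-0.12, -0.30 to 0.05) included 0. HSF1, HSPH1, HSPB1, HSP90AA1, BAG3, HSPD1 and HSPE1 lay between -0.12 and 0.11 on their main probe sets. The further HSF1 probe set was at 0.39 ± 0.20. Without the second wild-type add-back array, CRYAB (-0.60), DNAJB1 (-0.46), DNAJB6 (-0.75) and BAG2 (0.60) were called, with adjusted p from 0.02 to 0.0329. In that fit 5.1% of all genes were called, so the calls depend on which wild-type add-back arrays are kept.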

How the data were processed

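Per the labels, total RNA of 14 LNCaP samples was isolated with a Qiagen RNeasy kit, labelled by standard Affymetrix protocols and read on 1 array per sample. The deposited value table holds the authors' linear intensity values for 54613 probe sets, and how they summarized, background-corrected and scaled them was not given in the sources used here. Array medians lay between 107 and 117. In the platform annotation 41091 probe sets carried 1 gene symbol (41037 matched by gene identifier), 1801 several and 11721 none. Probe sets with 1 symbol were used, with the highest mean standing for a gene, and 67 of them read the members.

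Values were analysed as log2(value + 16), where the added 16 understates fold changes of low signals. Group means of all 14 arrays were fitted with lmFit, contrasts.fit and eBayes of limma 3.58.1 in R 4.3.3 (7 residual and 2.11 prior degrees of freedom), with Benjamini-Hochberg adjustment over 19775 genes for each of 7 comparisons. The fit was run on simulated arrays with independent noise and known changes in a small part of the genes, in TSA arrays alone. In the data 42.0% of genes were called for TSA against DMSO, so that run does not test the calls made here. In each comparison every called member was named, up to 12 with the signal of each array, with HSF1, HSPH1, HSPB1, HSPD1, HSPE1, HSP90AA1, DNAJB1 and BAG3 always given, and from the wider list up to 4 called genes with the smallest p. The members, the wider list and the tests were chosen with earlier results of these data known. Alternatives were pseudocounts of 1 and 64, testing the brighter genes only (those of higher mean signal), quantile normalization, equal array medians, averaging a gene's probe sets, the arrays of the same experiment alone and a replicate block. Each array in turn was also left out, as were the second Roscovitine and second T350A add-back arrays together. Promoters were searched and tables made with pandas 2.3.3 in Python 3.11.15, and figures with matplotlib 3.10.9.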

Additional observations from a re-analysis of the deposited data

How the results depend on the processing

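Of 1145 values for 50 gene results under 23 alternative settings, 1083 kept direction and call, 61 kept direction but were no longer called, and 1 changed sign: HSPA4 in TSA against Roscovitine was at -0.10 (adjusted p = 0.231) when its probe sets were averaged. Leaving out each array in turn gave 17 to 22 called members for TSA against DMSO, 18 to 22 for TSA against Roscovitine, 0 to 2 for Roscovitine against DMSO, 0 to 1 for si-EZH2 against si-Control, 2 to 7 for wild-type add-back against si-EZH2, 0 to 1 for the T350A add-back against si-EZH2 and 0 to 4 for T350A against wild-type. For Roscovitine against DMSO, a pseudocount of 64 gave 1 called member (DNAJB6), where 3.8% of all genes were called. The genes with the higher mean signal alone gave 4 (DNAJB6, BAG1 and HSPB8 higher, HSPA13 lower, where 11.7% of 9888 genes were called). Quantile normalization gave 1 (BAG1, 3.63% of all genes) and equal array medians 1 (DNAJB6, 2.1% of all genes). For the wild-type add-back, the transfected arrays alone gave 0, where 1.23% of all genes were called. For the T350A add-back against si-EZH2, a pseudocount of 64 gave 1 (DNAJA1, where 1.34% of all genes were called). The genes with the higher mean signal alone gave 2 (DNAJA1 and DNAJB4, where 4.08% were called). Where genes are left out, fewer tests are adjusted for and the pooled spread of the fit is estimated anew. The share of each in these changes, and the causes of the other changes, were not tested. With the mean of all probe sets, HSPA14 (-0.34) and DNAJA1 (-0.30) were also called lower in TSA against DMSO arrays.

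The labels' replicate numbers were not taken as pairs in the main fit. Over 21 pairs of groups the correlation of same-numbered deviations ran from -0.337 to 0.782, the highest between Roscovitine and the T350A add-back. Whether some samples were paired or shared a batch was not tested. With a replicate block 22 members were called for TSA against DMSO, 22 for TSA against Roscovitine and 6 for the wild-type add-back. Over all genes the shares were 41.8%, 43% and 10.9%. In the other 4 comparisons 0 members were called, where 0.101% to 2.36% of all genes were. The counts of members were as without the block. Without both arrays that stood apart, 19 members were called for TSA against Roscovitine and 7 for the wild-type add-back. Groups of 2 arrays allow no test for outlying arrays, and small differences rest on the pooled spread.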

Other observations

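Levels also differed between the 2 experiments, which the design does not compare. Across the 8 transfected arrays HSPH1 lay between 2684 and 3624, against 4459 to 4654 in the 4 Roscovitine and DMSO arrays. FKBP4 lay between 2937 and 3673 in transfected arrays, against 4424 to 4899.8 in Roscovitine and DMSO arrays. STIP1 lay between 2105 and 2636 in transfected arrays, against 2943 to 3481 in the others. HSPA9 was on the other side, with 5393 to 6161 in transfected arrays, against 4759.6 to 5030.5 in Roscovitine and DMSO arrays, as was CRYAB, with 109 to 209 in transfected arrays, against 59 to 89.7 in the others. These genes were chosen after their values were seen and the differences were not tested. Transfection, its length and any other difference between the experiments cannot be told apart.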
